A study of Drosophila melanogaster with 24 samples.

Results

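The genes described here encode the proteins that recognise core promoters for RNA polymerase II in Drosophila melanogaster, together with their closest partners. They are the TATA-binding protein gene Tbp and its relatives Trf and Trf2, the factor genes TfIIB and TfIIA-L, the TFIID scaffold gene Taf1, and the regulators of TBP, NC2alpha, NC2beta and Hel89B. All 9 were found by exact gene symbol in the deposited table, where they account for 26 of 45839 rows. The table names 13220 genes in all. Each row is a transcription start site (TSS) region merged over the libraries, and a gene's main row is the one with the highest mean over the 12 libraries. Its other rows are numbered from 2 in order of falling mean.

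The assay was csRNA-seq, which sequences short capped RNAs of 18 to 65 nt and so is meant to report where transcription starts rather than how much mRNA has accumulated. Embryos were aged at 25 degrees C and collected whole at 0-2, 2-4, 4-6 and 6-8 h. The genotype tinmDPE is represented by the lines F3 and M6 with 1 library each per window, and tinWT by the strain Cas9 with 1 library per window. The genotype name refers to tinman (tin), a heart and mesoderm gene, and to the downstream core promoter element (DPE). The DPE is a motif of promoters at which some of the factors described here act. Nothing in the labels gives the number of embryos per library, the bases edited or what the lines share beyond these names, and separate collections are not stated, so p-values measure the spread between these libraries, which may be partly technical.

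TBP binds the TATA box and bends the DNA, and TFIIA and TFIIB then hold it there and bring in the polymerase. In TFIID, TBP sits with the TBP-associated factors, of which TAF1 is the largest and contacts the initiator around the start site together with TAF2. TRF2 resembles TBP but does not bind the TATA box and serves TATA-less promoters, including DPE promoters, while the fly TRF protein works largely at genes of RNA polymerase III. NC2, a dimer of NC2alpha and NC2beta, blocks TFIIA and TFIIB on TBP at TATA promoters and was described in fly extracts as an activator of DPE promoters. Hel89B is the fly relative of the yeast ATPase Mot1, which strips TBP from DNA.

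The sequences around 4 start sites carry the main positional findings. They come from the RefSeq Release 6 assembly, which has the coordinates of dm6, and each runs from 40 bases before the called start base to 34 bases after it. The start base is in capitals in all of them. In Hel89B the other capitals mark a TATA box, and in Trf they mark the annotated start codon. The Trf2 pair shows the distal promoter (row 1) and the internal promoter (row 3), both of which became more active over the windows.
Hel89B main row, 3R:15973248-15973322, plus strand: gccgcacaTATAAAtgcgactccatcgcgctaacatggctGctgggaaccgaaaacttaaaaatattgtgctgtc
Trf main row, 2L:8072935-8073009, plus strand: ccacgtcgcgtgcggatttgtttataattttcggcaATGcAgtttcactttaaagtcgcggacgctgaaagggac
Trf2 row 1, X:8409235-8409309, plus strand: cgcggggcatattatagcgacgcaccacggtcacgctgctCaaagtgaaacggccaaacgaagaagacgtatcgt
Trf2 row 3, X:8421309-8421383, plus strand: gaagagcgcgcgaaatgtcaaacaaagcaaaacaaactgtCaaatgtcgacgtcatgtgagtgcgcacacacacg

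The members' own main start sites were searched for known core promoter motifs. An initiator (TCA, then G or T, then T, then C or T) with its A within 5 bp of the called base was found at 0 of 9 main rows, against 14.5% of the 18098 promoter rows of the table. A DPE starting at position 28 counted from the initiator's A was sought only in rows with an initiator, and 3.32% of promoter rows had both. Since 0 of 9 main rows had an initiator, this search could not find a DPE in them and does not show that they lack one. A TATA box (TATA, then A or T, then A) starting at -33 to -28 was found in Hel89B alone, at -32, against 4.83% of promoter rows. Those 3 motifs were sought on the strand of the row, and with 9 rows the initiator and TATA box counts do not set the members apart from other promoters.

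Motifs of the housekeeping type were sought on both strands from -100 to 50 bp of the called base. The DNA replication-related element (DRE, TATCGATA), bound by the factor DREF, was found in Tbp alone, at -58, against 5.91% of promoter rows. Ohler motif 1, bound by M1BP, was found exactly at 0 of 9 main rows, against 3.23% of promoter rows. With 1 mismatch, a setting added after the data were seen, it was found in Taf1, TfIIA-L and Trf2, against 8.76% of promoter rows. With 1 mismatch the DRE was found in Tbp and TfIIA-L, against 16.3% of promoter rows. The called base and the base before it read CA at 5 of the 9 main rows, and that pair stood at 51.8% of promoter rows.

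The called start base fell at or near the annotated first base for most members. It coincided with the annotated start in TfIIB and Taf1, lay 3 bp past it in Trf2, 9 bp past it in NC2beta and 40 bp past it in TfIIA-L, and lay 10 bp before it in Hel89B. Trf was the exception. Its called base, 2L:8072975, lay 80 bp past the annotated transcript start and 4 bases past the first base of the annotated start codon at 8072971. In 6 libraries the call was that base and in the other 6 it was 6 bp further downstream, so all 12 libraries placed the Trf start past the annotated ATG. RNAs that begin at these positions do not contain that ATG.

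**Figure D1:**
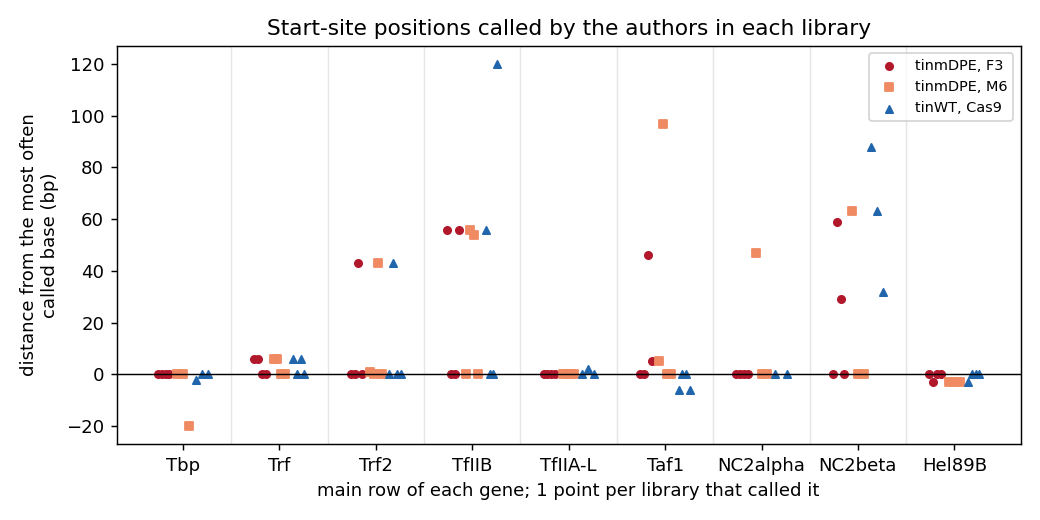
Distance in bp between the start position called by the authors in each library and the position most often called for that row, for the main row of each gene, with 1 point per library that called it (F3 and M6, tinmDPE; Cas9, tinWT). TfIIA-L and Hel89B stay within 3 bp, Trf falls on a pair of positions 6 bp apart, and TfIIB, Taf1 and NC2beta have calls up to 120, 97 and 88 bp downstream.

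Members differed in how sharply their starts were placed. The call was the same base in 10 of 11 libraries for TfIIA-L, 8 of 10 for Tbp and 8 of 9 for NC2alpha. In Hel89B all 11 calls lay within 5 bp of each other. In Trf2 row 1, 8 of 12 calls were at the same base, and 3 calls, tinmDPE F3 and M6 at 4-6 h and tinWT at 2-4 h, lay 43 bp downstream. TfIIB had 6 of 12 calls at the annotated start and 6 others 54 to 120 bp downstream. NC2beta had 4 of 10 calls at the same base, and the others lay up to 88 bp downstream. These are the authors' calls per library, and main rows were called in 9 to 12 of the 12 libraries.

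Start-site activity of the 9 main rows covered a wide range and was highest for Trf2. Values are the authors' regularized log (rlog) values on a log2 scale. They count the 5′ ends of tags in a region, so a transcript's length does not enter, although the main rows differ in width between 152 and 270 bp. Over the 12 libraries Trf2 averaged 10.59 ± 0.56 (SD), which placed it above 99.1% of all rows. NC2alpha averaged 8.77 ± 0.64, Trf 8.29 ± 0.21, TfIIA-L 7.91 ± 0.37 and Hel89B 7.81 ± 0.51. Tbp itself averaged 6.89 ± 0.48, NC2beta 5.94 ± 0.32, Taf1 5.63 ± 0.32 and TfIIB 5.17 ± 0.38, and TfIIB still lay above 85.6% of all rows.

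Several neighbours in that order overlapped. TfIIA-L exceeded Hel89B in 6 of 12 libraries, with a mean difference of 0.10 ± 0.60 (SD), and NC2alpha exceeded Trf in 8 of 12. NC2beta exceeded Taf1 in 9 of 12 libraries. Trf2 exceeded NC2alpha in 11 of 12, by a mean of 1.83 ± 1.03, and Tbp exceeded NC2beta in 11 of 12, by 0.95 ± 0.55. The relatives of TBP had higher start-site values than Tbp in all 3 strains of those windows, Trf2 by 4.58 ± 1.07 (SD, n = 3) at 6-8 h, against 2.68 ± 0.25 at 0-2 h, and Trf by 1.66 ± 0.53 at 6-8 h, against 0.71 ± 0.26 at 0-2 h. Trf had the smallest spread over the 12 libraries of the 9 genes.

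The labels were checked before the windows and genotypes were compared. The main row of tin was lower in both tinmDPE lines than in tinWT in each of the 4 windows, and the fitted difference was -0.91 ± 0.23 (SE), with an adjusted p of 0.125 in limma over all rows. Genes known for maternal and germ line expression, such as nos, osk and bcd, were lower at 6-8 h than at 0-2 h in 7 of 7 cases (median change -4.88). Of 8 genes of the later embryo, 5 were called higher (elav, repo, pnr, Ubx and Abd-B). Of 9 genes known for blastoderm expression, 9 were higher at 2-4 h than at 0-2 h, and 3 of these were called. At 6-8 h against 0-2 h 5 of the 9 were called lower and 2 were called higher. At 0-2 h the mean values of nos, osk and bcd were 8.09, 7.39 and 8.83. The later embryo genes already had a median of 6.94 at 0-2 h, against 8.09 for the maternal and germ line genes. Among them repo stood at 9.68 and Abd-B at 10.15. Whether RNA inherited from the mother enters the 0-2 h values, and so the changes against 0-2 h, was not tested. The libraries held 2632187 to 10553406 tags, with the fewest in every strain at 0-2 h and the most at 6-8 h.

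**Figure D2:**
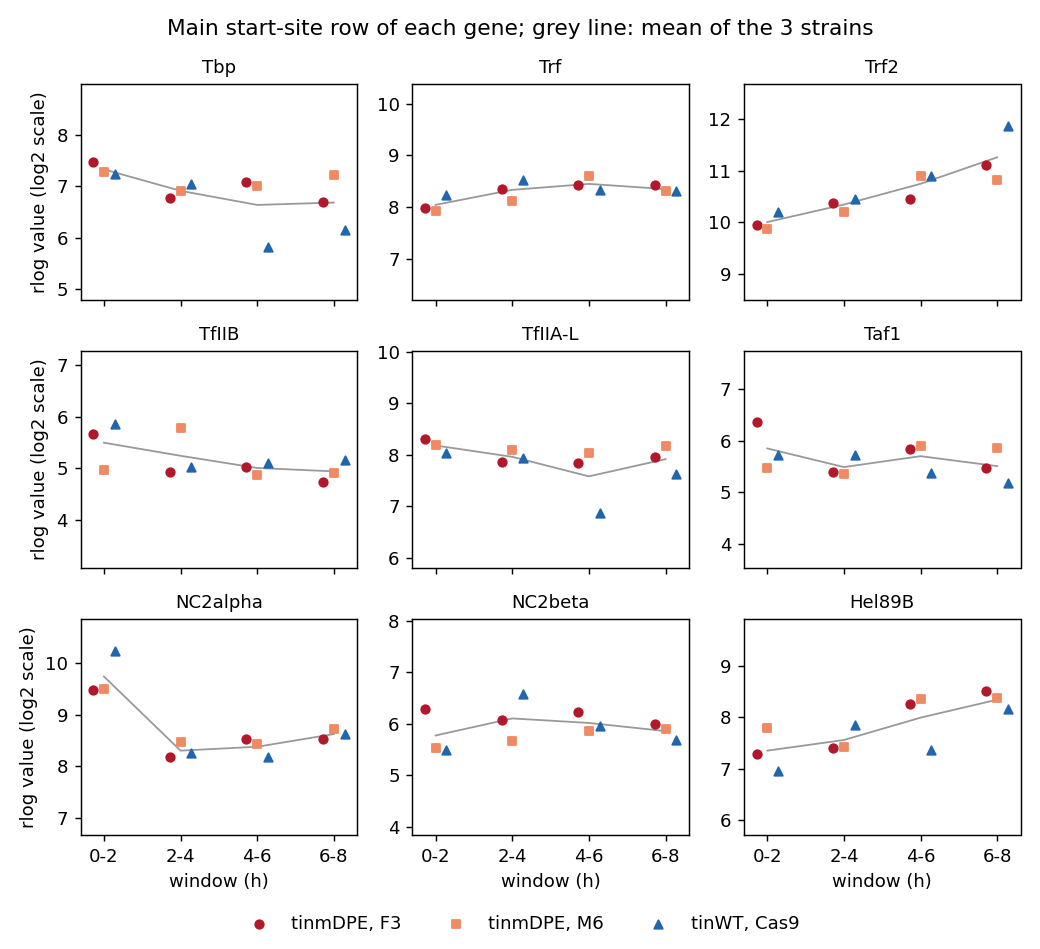
Start-site activity (rlog value, log2 scale) of the main row of each of the 9 genes in the 4 windows, with 1 point per library (F3 and M6, tinmDPE; Cas9, tinWT), a grey line through the mean of the 3 strains, and axes of the same length in every panel. Trf2 and Hel89B are higher at 6-8 h than at 0-2 h, NC2alpha is lower from 2-4 h on, and Trf stays between 7.91 and 8.60.

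Over embryonic time, NC2alpha fell, Trf2 and Hel89B rose, and the other 6 main rows did not pass a test. The test over the 4 windows (limma F test with strain as a block, adjusted over all rows, threshold 0.05) called 2 of the 9 main rows, NC2alpha (adjusted p = 0.0029) and Trf2 (adjusted p = 0.0058), while it called 19.9% of all rows. Among the 6056 promoter rows with a mean at or above that of the lowest member it called 3031, so 2 of 9 is not a high share for promoters of such strength. In whole embryos a change in the number of cells that use a promoter and a change of its use per cell cannot be told apart.

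NC2alpha (2R:21670164, plus strand, 12 bp past its annotated start), the alpha subunit of NC2, had its highest values in the youngest embryos. At 0-2 h its values were 9.49 and 9.50 in the tinmDPE lines F3 and M6 and 10.25 in tinWT. At 2-4 h they were 8.19 and 8.47 in tinmDPE and 8.26 in tinWT. At 4-6 h they were 8.53 and 8.44 in tinmDPE and 8.18 in tinWT, and at 6-8 h 8.53 and 8.72 in tinmDPE and 8.63 in tinWT. All 3 libraries of 0-2 h lay above all 9 of the later windows, which differed little among themselves. The authors did not call a start at this row in tinWT at 0-2 h, M6 at 2-4 h or tinWT at 4-6 h. The M6 call of 0-2 h lay 47 bp downstream of the base given.

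The change of NC2alpha at 2-4 h against 0-2 h was -1.44 ± 0.27 (SE), with an adjusted p of 0.0077. NC2alpha was the only main row called in that comparison, in which 2.44% of all rows were lower and 4.22% higher. Among promoter rows with at least the lowest member's mean, 16.8% were called in either direction. At 6-8 h against 0-2 h its change was -1.12 ± 0.27 (adjusted p = 0.0075). Both changes were negative in 3 of 3 strains, between -1.03 in M6 and -1.99 in Cas9 at 2-4 h against 0-2 h. The call at 2-4 h was lost without the tinmDPE F3 library of that window (adjusted p = 0.057), and the call at 6-8 h without tinWT 0-2 h or tinmDPE F3 6-8 h (adjusted p of 0.053 and 0.056). In fits that left out a strain, the call at 2-4 h was lost in 3 of 3 (adjusted p of 0.098 to 0.263). The call at 6-8 h was lost in 2 of 3 such fits, with adjusted p of up to 0.155. The maternal and germ line genes fell in the same step, 6 of 7 of them called with a median of -2.75, and their part in the fall of NC2alpha was not tested.

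NC2beta (2L:15007822, plus strand), the partner with which NC2alpha forms a dimer, did not pass a test. Its values were 6.30 and 5.53 in tinmDPE and 5.49 in tinWT at 0-2 h, 6.08 and 5.66 in tinmDPE and 6.58 in tinWT at 2-4 h, 6.24 and 5.86 in tinmDPE and 5.95 in tinWT at 4-6 h, and 5.99 and 5.89 in tinmDPE and 5.69 in tinWT at 6-8 h. Its change at 6-8 h against 0-2 h was 0.09 ± 0.31 (adjusted p = 0.879), and it turned negative without tinWT 0-2 h, without M6 6-8 h and without the whole M6 line. The NC2alpha value exceeded that of NC2beta by 2.77 ± 0.20 (SD, n = 3) at 6-8 h, 2.36 ± 0.18 at 4-6 h and 2.20 ± 0.57 at 2-4 h, against 3.97 ± 0.78 at 0-2 h. The difference between the changes of the 2 subunit genes was not tested.

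Hel89B (3R:15973288, plus strand), the relative of Mot1, moved in the opposite direction to NC2alpha. Its main row had 8.50 and 8.37 in tinmDPE and 8.15 in tinWT at 6-8 h, against 7.29 and 7.80 in tinmDPE and 6.97 in tinWT at 0-2 h. The intermediate windows gave 7.40 and 7.43 in tinmDPE and 7.85 in tinWT at 2-4 h, and 8.26 and 8.35 in tinmDPE and 7.36 in tinWT at 4-6 h. The change at 6-8 h against 0-2 h was 0.99 ± 0.30 (adjusted p = 0.032) and was positive in 3 of 3 strains. It is a weak call, since it was lost in 8 of 12 fits that left out 1 library, with adjusted p of 0.052 to 0.162, among them each of the 3 libraries of 6-8 h. The F test over the windows did not call it (adjusted p = 0.085).

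A second Hel89B row on the opposite strand also rose. Its called base, 3R:15973741, lies in the first exon of Hel89B and at -828 bp from the annotated start of mor on that strand, and the table assigns it to Hel89B. It had 4.77 and 4.65 in tinmDPE and 4.20 in tinWT at 6-8 h, against 2.91 and 3.11 in tinmDPE and 3.20 in tinWT at 0-2 h. The change was 1.46 ± 0.33 (adjusted p = 0.0047 in limma), and it stayed past the threshold in all 12 fits that left out 1 library. It was lost in 2 of 3 fits that left out a strain, with adjusted p of up to 0.161. The authors called the row in 8 libraries and in no library of 0-2 h. Of the calls, 4 were at the base given and the others lay 51 or 79 bp downstream.

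**Figure D3:**
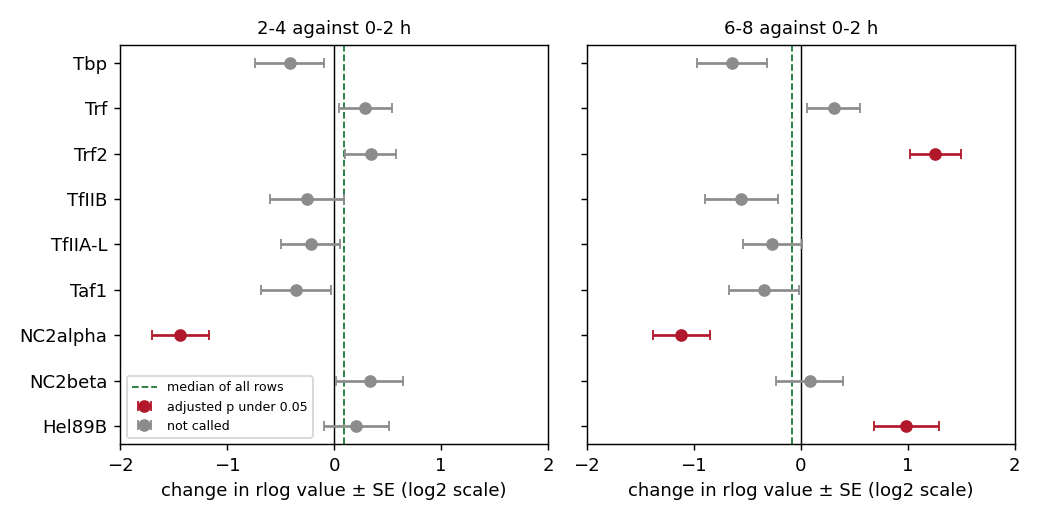
Change in rlog value (log2 scale) ± SE of the 9 main rows at 2-4 h against 0-2 h (left) and at 6-8 h against 0-2 h (right), from limma fits to all rows with strain as a block. Red points passed an adjusted p of 0.05, grey points did not, and the dashed line marks the median of all rows. NC2alpha is at -1.44 and -1.12, Trf2 at 1.26 and Hel89B at 0.99 in the right panel.

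Trf2 (X:8409275, plus strand), the TBP relative that works at DPE promoters, rose through the windows. Its main row had 9.95 and 9.87 in tinmDPE and 10.20 in tinWT at 0-2 h, and 10.38 and 10.21 in tinmDPE and 10.45 in tinWT at 2-4 h. It had 10.46 and 10.90 in tinmDPE and 10.89 in tinWT at 4-6 h, and 11.10 and 10.81 in tinmDPE and 11.87 in tinWT at 6-8 h. The 6-8 h libraries all lay above the 0-2 h libraries, and tinWT at 6-8 h had the highest value of the 12. The change at 6-8 h against 0-2 h was 1.26 ± 0.24 (adjusted p = 0.0014), positive in 3 of 3 strains (1.16 in F3, 0.94 in M6 and 1.67 in Cas9), and past the threshold in all 12 fits that left out 1 library. In this comparison 3 of 9 main rows were called, Trf2 and Hel89B higher and NC2alpha lower, while 9.88% of all rows were called higher and 7.5% lower. Among promoter rows with at least the lowest member's mean, 48.2% were called in either direction.

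The start sites of Trf2 did not all move the same way. The gene had 12 of the 26 rows, of which 9 were on the strand opposite to it. Row 3 (X:8421349, plus strand) lies 12074 bp downstream of row 1 and 16 bp before the annotated start of a shorter transcript, and so marks an internal promoter. It had 8.13 and 8.01 in tinmDPE and 8.05 in tinWT at 6-8 h, against 6.21 and 5.88 in tinmDPE and 6.09 in tinWT at 0-2 h. In between it had 6.73 and 6.96 in tinmDPE and 7.48 in tinWT at 2-4 h, and 7.81 and 7.50 in tinmDPE and 7.03 in tinWT at 4-6 h. All 11 libraries that called row 3 placed it at the same base.

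Row 3 rose by 2.00 ± 0.30 at 6-8 h against 0-2 h (adjusted p = 0.00022), with similar sizes in F3 (1.92), M6 (2.13) and Cas9 (1.96), and it stayed past the threshold in all 12 fits that left out 1 library. The distal row exceeded the internal one by 2.98 in F3, 2.81 in M6 and 3.82 in Cas9 at 6-8 h, against 3.74, 3.99 and 4.11 at 0-2 h. The gap was smaller at 6-8 h in all 3 strains, by a margin that was not tested and was small in Cas9. Row 1 lies within the region of the gene lawc on the other strand, and tags were assigned by strand.

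**Figure D4:**
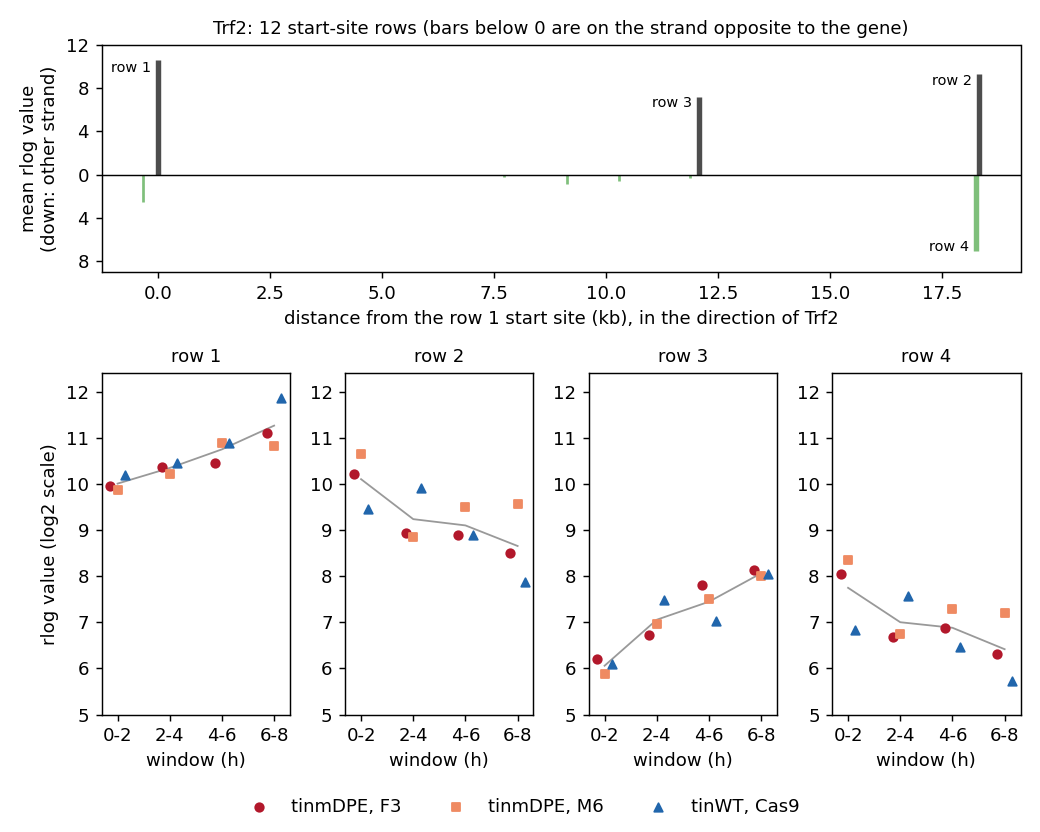
Upper panel: mean rlog value of the 12 start-site rows of Trf2 by distance in kb from the row 1 start site, with rows on the opposite strand drawn downwards and means below 0 not drawn. Lower panels: values of rows 1 to 4 in the 4 windows (log2 scale), 1 point per library (F3 and M6, tinmDPE; Cas9, tinWT) with a grey line through the mean. Rows 1 and 3 are higher at 6-8 h than at 0-2 h, and rows 2 and 4, which lie 56 bp apart on opposite strands, are lower.

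The remaining strong rows of Trf2 lie inside its coding sequence and had lower values at 6-8 h than at 0-2 h. Row 2 (X:8427599, plus strand) is 512 bp past the nearest annotated start codon, and row 4 (X:8427543) faces it on the opposite strand, 56 bp away. Row 2 had 8.51 and 9.58 in tinmDPE and 7.88 in tinWT at 6-8 h, against 10.21 and 10.64 in tinmDPE and 9.45 in tinWT at 0-2 h. Row 4 had 6.32 and 7.21 in tinmDPE and 5.72 in tinWT at 6-8 h, against 8.05 and 8.35 in tinmDPE and 6.84 in tinWT at 0-2 h. The authors called a start at row 2 in 8 libraries and in no library of 0-2 h, the window with its highest mean. They called one at row 4 in 11 libraries, all but tinWT at 0-2 h. The changes were -1.45 ± 0.38 for row 2 (adjusted p = 0.013) and -1.33 ± 0.39 for row 4 (adjusted p = 0.025). The F test over the windows called neither row (adjusted p = 0.053 for row 2 and 0.098 for row 4).

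Both calls depended on single libraries, since each was lost in 7 of 12 fits that left out 1 library, with adjusted p of up to 0.133 for row 2 and 0.162 for row 4. The same 7 libraries decided both rows, the F3 and M6 libraries of 0-2 h and 4-6 h, F3 at 2-4 h, and F3 and tinWT at 6-8 h. The value of row 2 exceeded that of row 4 by 2.24 ± 0.12 (SD, n = 3) at 6-8 h, 2.22 ± 0.21 at 4-6 h and 2.23 ± 0.12 at 2-4 h, against 2.35 ± 0.23 at 0-2 h, so the pair moved together. No annotated promoter lies at these rows, and the input libraries, which would show uncapped or degraded RNA, were not analysed here. Row 5, on the strand of lawc, had a change of -1.51 ± 0.47 (adjusted p = 0.035) at 6-8 h against 0-2 h and was called in 2 libraries.

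Tbp (2R:21687617, minus strand, 25 bp past its annotated start) did not pass a test over the windows. It had 6.70 and 7.21 in tinmDPE and 6.14 in tinWT at 6-8 h, against 7.48 and 7.27 in tinmDPE and 7.24 in tinWT at 0-2 h. At 2-4 h the values were 6.78 and 6.91 in tinmDPE and 7.04 in tinWT, and at 4-6 h 7.08 and 7.001 in tinmDPE and 5.83 in tinWT. The change at 6-8 h against 0-2 h was -0.64 ± 0.32 (adjusted p = 0.194), made up of -0.78 in F3, -0.06 in M6 and -1.09 in Cas9. The lowest values of Tbp were therefore those of tinWT at 4-6 and 6-8 h.

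Trf (2L:8072975, plus strand), TfIIA-L (3R:27253470, plus strand), TfIIB (2L:10431338, plus strand) and Taf1 (3R:6646889, plus strand) did not pass either. Trf had 8.42 and 8.31 in tinmDPE and 8.31 in tinWT at 6-8 h, against 7.98 and 7.91 in tinmDPE and 8.23 in tinWT at 0-2 h (change 0.31 ± 0.25, adjusted p = 0.475). TfIIA-L, which encodes the precursor of the large TFIIA subunits, had 7.96 and 8.17 in tinmDPE and 7.62 in tinWT at 6-8 h, against 8.31 and 8.20 in tinmDPE and 8.04 in tinWT at 0-2 h (change -0.27 ± 0.28, adjusted p = 0.610). Its lowest value, 6.87, was that of tinWT at 4-6 h, the library in which Tbp was also lowest.

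TfIIB, which links TBP to the polymerase, had 4.74 and 4.92 in tinmDPE and 5.17 in tinWT at 6-8 h, against 5.67 and 4.96 in tinmDPE and 5.86 in tinWT at 0-2 h (change -0.56 ± 0.34, adjusted p = 0.306). Taf1 had 5.48 and 5.85 in tinmDPE and 5.18 in tinWT at 6-8 h, against 6.35 and 5.46 in tinmDPE and 5.72 in tinWT at 0-2 h (change -0.34 ± 0.33, adjusted p = 0.569). The values of the 2 windows overlapped for TfIIB and Taf1. The median change of the 9 main rows at 6-8 h against 0-2 h was -0.27, and that of all rows was -0.08. Between adjacent later windows 0 of 9 main rows were called by limma. At 4-6 h against 2-4 h 2.11% of all rows were called. There 0 members had an unadjusted p under 0.05, against 14.1% of all rows. At 6-8 h against 4-6 h 0.513% of all rows were called. There 1 member, Trf2, had an unadjusted p under 0.05, against 11.5% of all rows.

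The other rows of these genes were mostly weak. Of the 26 rows, 13 were on the strand opposite to their gene, with means between -0.89 and 7.01, and 10 of those were called in 1 or 2 libraries. Tbp, Trf, NC2alpha and TfIIB had 1 row each. TfIIA-L row 2, in an intron 448 bp past the annotated start, had a mean of 3.22 and passed the F test narrowly (adjusted p = 0.049), with 3.26 and 3.15 in tinmDPE and 3.46 in tinWT at 6-8 h, against 2.96 and 1.86 in tinmDPE and 2.61 in tinWT at 0-2 h. That call was kept in 4 of 20 alternative fits and was lost under quantile normalization, under median centring and in 10 of 12 fits that left out 1 library, with adjusted p of up to 0.24 over all 20. The change of the row at 6-8 h against 0-2 h was 0.82 ± 0.34 (adjusted p = 0.114). Taf1 row 2, in exon 2 on the opposite strand, had a mean of 1.69 and a change of 1.03 ± 0.41 (adjusted p = 0.098), and NC2beta row 2 was called in 1 library with a mean of 0.37.

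The genotype comparison asked whether embryos labelled tinmDPE initiate these factor genes differently from those labelled tinWT. All 4 tinWT libraries come from the strain Cas9, so genotype and strain cannot be told apart, and the fit counts the windows of a strain as separate libraries, which can make its p-values too small. The main row of none of the 9 genes was called by limma with the window as covariate (0 of 9), where 0.323% of all rows were called. At an unadjusted p under 0.05 there were 2 of 9 members, TfIIA-L and Trf2, against 9.72% of all rows. TfIIA-L was higher in tinmDPE in 7 of 8 matched comparisons of a line with tinWT, by 0.44 ± 0.20 (adjusted p = 0.480). In each window F3 and M6 are set against the same tinWT library, so these comparisons are not independent. Trf2 was lower in tinmDPE in 7 of 8, by -0.39 ± 0.17 (adjusted p = 0.448), and the difference was widest at 6-8 h, where the mean of the lines was 0.91 below tinWT. Tbp was higher in tinmDPE in 6 of 8, by 0.49 ± 0.23 (adjusted p = 0.513). TfIIB was lower in tinmDPE in 7 of 8, by -0.18 ± 0.25 (adjusted p = 0.889).

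**Figure D5:**
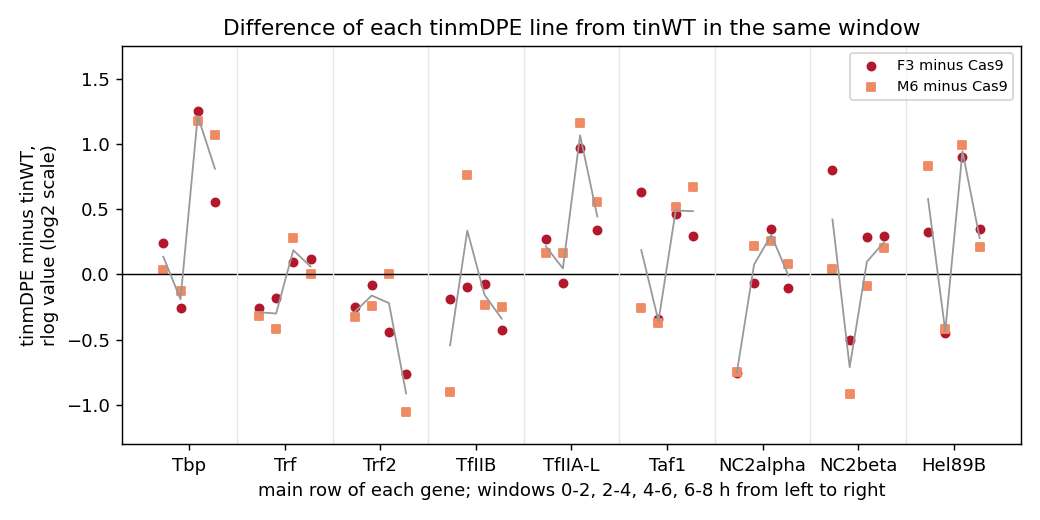
Difference in rlog value (log2 scale) of each tinmDPE line, F3 or M6, from tinWT (Cas9) in the same window, for the 9 main rows. Within each gene the windows run from 0-2 to 6-8 h, and the grey line joins the means of the lines. Both lines lie above tinWT for Tbp and TfIIA-L at 4-6 and 6-8 h and below it for NC2alpha at 0-2 h.

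The differences between lines and tinWT were not the same in every window, but the test of that change called 0 of 9 main rows, while it called 4.95% of all rows. At an unadjusted p under 0.05 it had 3 of 9 members, Tbp, Hel89B and NC2alpha (adjusted p of 0.247, 0.253 and 0.256), against 16.5% of all rows. For Tbp the mean of F3 and M6 minus tinWT was 1.21 at 4-6 h, and for Hel89B it was 0.94 at 4-6 h. For NC2alpha it was -0.75 at 0-2 h, when the values were 9.49 and 9.50 in tinmDPE and 10.25 in tinWT. Since tinWT has 1 library per window, a difference in a single window is a difference from that library. Between the tinmDPE lines, F3 against M6, 0 of 9 main rows were called and 0 had an unadjusted p under 0.05. Of all rows, 0.00218% (1 row) was called and 3.78% had an unadjusted p under 0.05.

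Other genes of the same machinery, listed with earlier results of these data known, are counted here by limma calls at 6-8 h against 0-2 h. These counts stand against the 9.88% of all rows called higher and 7.5% called lower, and against the 48.2% called in either direction among promoter rows at the members' level, and no list of these genes exceeds the 48.2%. Of 12 other TFIID subunit genes, 0 were called higher and 2 were called lower, Taf6 (-1.11 ± 0.35) and Taf7 (-1.46 ± 0.31, adjusted p = 0.0035), with a median of -0.20. The strongest Taf7 row is on the strand opposite to Taf7, so its change is not one of the Taf7 mRNA start. The count of 2 was 1 to 2 in fits that left out 1 library. Of 16 other general factor genes with a row, 3 were called higher and 4 were called lower, with a median of -0.40, and these 7 calls were 4 to 8 in fits that left out 1 library.

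TfIIA-S, which encodes the small TFIIA subunit, was among those that rose, with 9.62 and 9.06 in tinmDPE and 9.54 in tinWT at 6-8 h, against 8.04 and 7.90 in tinmDPE and 8.31 in tinWT at 0-2 h (change 1.32 ± 0.25, adjusted p = 0.0014). Its partner TfIIA-L did not pass, as given above. Tfb1, a TFIIH subunit gene, rose by 1.52 ± 0.31 (adjusted p = 0.0026), and the cyclin gene CycH of the same complex by 1.03 ± 0.27. TfIIFalpha and TfIIFbeta, for the subunits of the factor that escorts the polymerase, had changes of -1.94 ± 0.29 (adjusted p = 0.00024) and -1.31 ± 0.36, and the TFIIH genes Tfb4 and Cdk7 of -1.16 ± 0.26 and -1.12 ± 0.28.

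Of 9 genes for promoter-sequence binders and TRF2 partners, 4 were called lower and 0 were called higher at 6-8 h against 0-2 h, and the other 5 did not pass, with a median change of -0.39 over the 9. The 4 were dl (-3.36 ± 0.40, adjusted p = 3.4e-05), for the dorsal-ventral factor Dorsal, Dref (-1.61 ± 0.35, adjusted p = 0.0040), for the DRE binder that was purified with TRF2, BEAF-32 (-1.18 ± 0.34) and Nurf-38 (-1.003 ± 0.33), and the count was 2 to 4 in fits that left out 1 library. Dref had 6.64 and 6.69 in tinmDPE and 6.70 in tinWT at 6-8 h, against 8.34 and 7.77 in tinmDPE and 8.74 in tinWT at 0-2 h. Trf2 was called higher in the same comparison, and a relation between the changes of Dref and Trf2 was not tested.

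Brf, for the RNA polymerase III factor that works with TRF in flies, was lower at 2-4 h than at 0-2 h (-1.35 ± 0.34, adjusted p = 0.030), and its change at 6-8 h against 0-2 h was -0.65 ± 0.34 (adjusted p = 0.223). Of the 5 genes listed as testis TAFs that had a row, 1 was called higher at 6-8 h against 0-2 h, mia (1.15 ± 0.28, adjusted p = 0.0080), and 0 were called lower. The median change over the 5 was -0.29, and the count of calls was 0 to 1 in fits that left out 1 library. The main rows of mia and Taf12L were called as start sites in all 12 embryo libraries. Over the same lists 1 gene was called between tinmDPE and the single tinWT strain, TfIIS, for an elongation factor. It had 9.001, 8.46, 8.38 and 8.57 in F3 and 8.61, 8.68, 8.37 and 8.54 in M6 over the windows from 0-2 to 6-8 h, against 10.06, 9.29, 9.71 and 9.60 in tinWT. The difference was -1.09 ± 0.17 (adjusted p = 0.0079), and the call was lost without tinWT 0-2, 4-6 or 6-8 h or F3 4-6 h, with adjusted p of 0.054 to 0.094. It was also lost, with larger adjusted p, when either tinmDPE line was left out.

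The promoter rows whose 12 values were most like those of 8 members were found among 18097 other rows, as a description with no test, since the libraries share their windows and strains. For Trf2 they were drpr, kst and vimar (Pearson r of 0.977, 0.976 and 0.974). For Hel89B they were Myo31DF, CG42806 and Bx (0.977, 0.970 and 0.965), and for NC2alpha HSPBAP1, Updo and DppIII (0.974, 0.962 and 0.961). For Tbp they were CG7222, mi and Prp8 (0.955, 0.949 and 0.943), and for Trf Usf, ocm and PPP1R15 (0.958, 0.930 and 0.918). For TfIIB they were vg, Chd64 and Opa1 (0.945, 0.916 and 0.914), for NC2beta CG43149, Snoo and Madm (0.914, 0.904 and 0.901), and for Taf1 Sec24AB, Pgant7 and CG3704 (0.895, 0.890 and 0.870). None of the 9 members was among the 3 nearest of another.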

How the data were processed

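csRNA-seq libraries of whole embryos were grouped by the labels' strain, genotype and window, with 4 tinWT and 8 tinmDPE libraries. Of 24 samples, the 12 input libraries were not analysed here. Per the file headers, the authors merged the start sites called in the csRNA libraries, strand by strand, with HOMER and computed regularized log values (log2 scale) on dm6 from same-strand tags with a fragment length of 1. Per the submitters' processing notes, HOMER, STAR 2.7.10a and edgeR were among the tools. The transform shrinks low values, which understates changes of weak rows. The authors' deposited table also gives a score and a count of the calls merged into each row. Column names gave the library of each value, and 0 value columns stayed unused. The libraries held 2632187 to 10553406 tags, and their number limits the precision.

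limma 3.58.1 in R 4.3.3 was fitted to all 45839 rows (moderated variances with a mean trend), with Benjamini-Hochberg adjustment and a threshold of 0.05. The windows were compared with strain as a replicate block. Strain pairs the libraries because each strain is a line. Deviations from the window averages correlated weakly within a strain (mean r of 0.154 for Cas9, 0.0643 for F3 and 0.0669 for M6, with lowest pairs at -0.0177, -0.0241 and -0.0714), against a mean of -0.0475 for libraries of different strains and windows. The deviations of the strains cancel within each window, which ties this last mean to the others, so it is no independent baseline. Genotype had the window as covariate. Models and motif searches were tested on simulated data. Sequence was read by script (Python 3.11.15) after chromosome lengths were compared. Gene starts, codons and strands came from the Ensembl annotation.

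The members and lists were chosen with earlier results of these data known. Named were all main rows, other rows that passed the F test or were second in their gene, the 6 listed genes with the largest change at 6-8 h among those past the F test, and listed genes called between genotypes. Trf2 rows 4 and 5, Taf6, CycH, TfIIFbeta, Tfb4, Cdk7, BEAF-32, Nurf-38, Brf and mia were named after their values were seen where this rule did not name them. Alternatives were quantile normalization, median centring, a filter at the 25th percentile of mean value, no variance trend, no replicate block, main rows among promoter rows, each library or strain left out, and other motif and position settings. The genes rye, Tfb2 and CG5380 of the lists had no row under their symbols. The rows most like TfIIA-L are not reported here.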

Additional observations from a re-analysis of the deposited data

How the results depend on the processing

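The number of main rows called by the F test over the windows stayed at 2 to 3 when 1 library was left out, was 1 under quantile normalization, where Trf2 was lost, and was 0 when any strain was left out, so its range over fits with samples left out was 0 to 3. The count at 2-4 h against 0-2 h ranged from 0 to 1 over such fits, and the count at 6-8 h against 0-2 h from 0 to 3. With 2 strains the fits have few samples, and without F3 every member call and every call in the lists at 6-8 h against 0-2 h was lost, that of Trf2 at 6-8 h with an adjusted p of 0.120 and that of row 3 with 0.0676. Without the replicate block the counts were 2, 1 and 3, as with it, and of the rows named only TfIIA-L row 2, Brf and Taf12L lost an F test call. The 0 calls in the later steps, between genotypes, for genotype by window and for F3 against M6 held under every alternative run of those comparisons. In the lists, quantile normalization gave 1 TFIID call at 6-8 h against 0-2 h in place of 2, 5 for the other general factors in place of 7 and 3 for the binders in place of 4.

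Signs turned for values near 0. The genotype difference of NC2beta was -0.020 under quantile normalization and ranged from -0.19 to 0.26 over fits with a library or strain left out. Over such fits that of NC2alpha ranged from -0.23 to 0.12, that of Trf2 row 3 from -0.22 to 0.20, that of TfIIA-L row 2 from -0.58 to 0.029, and the change of NC2beta at 6-8 h against 0-2 h from -0.096 to 0.29 without a library and from -0.053 to 0.28 without a strain, and was 0.33 under quantile normalization. Median centring of the libraries shifted the median change at 2-4 h against 0-2 h by 0.18. The depth, which was lowest at 0-2 h, limits weak rows.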
